A study of Bos taurus with 6 samples.

Results

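Triacylglycerol, the fat that fills marbling, is built from glycerol-3-phosphate by a chain of enzymes that sit mostly in the endoplasmic reticulum. The 10 genes described here are GPD1, GPAM, AGPAT1, AGPAT2, AGPAT3, LPIN1, LPIN2, LPIN3, DGAT1 and DGAT2, taken by name from glycerol-3-phosphate to triacylglycerol. Each was found once by its symbol among the 23015 rows of the gene count tables. GPD1 is a cytosolic dehydrogenase that makes glycerol-3-phosphate from a glycolytic intermediate, and GPAM is a mitochondrial acyltransferase that adds the first fatty acid. The AGPAT enzymes add the second fatty acid to give phosphatidic acid, the lipins remove its phosphate to give diacylglycerol, and DGAT1 and DGAT2, which are unrelated in sequence, add the last fatty acid. The chain is active in fat cells, and muscle fibres also run it to store small lipid droplets.

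The samples were longissimus thoracis (LT) muscle of Hanwoo (Korean native cattle) steers, 1 library per animal, 3 animals carrying a high number of fine marbling particles (NFMP) and 3 a low number. Fine particles are small flecks of fat on the cut muscle surface. The steers with a high NFMP were 3-8, 10-8 and 10-9, aged 32.5, 33.8 and 34.5 months, and the low-NFMP steers were 3-1, 3-3 and 10-16, aged 37.8, 33.7 and 35.4 months. All were raised conventionally on commercial feed, and they were sorted by a carcass trait and not treated. The question was whether any of these enzymes differed between the groups, and which isoform of each family was counted most. The libraries held between 16283873 and 17192750 counted reads, and the 10 enzymes took between 0.0779% and 0.0917% of them. Levels are given as CPM, counts scaled to a library of 1000000 reads by the trimmed mean of M-values (TMM) method, on which 1 read was worth between 0.0551 and 0.0662 CPM. In this 3′ mRNA method reads start at the poly(A) tail, so a longer transcript is not designed to give more reads, and levels of different genes are set side by side per read and not per kilobase.

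The 10 muscle fibre markers (among them ACTA1, CKM and MYH7) were counted at least 8801 times in each library, so the tissue matched its label. Fat cells were present too, since all 11 adipocyte markers found, of 12 looked for, were counted in each library. The library of steer 3-8 stood apart in them. Their summed level was 622 CPM there, against between 195 and 278 CPM in the other 5 steers, and all 11 were highest in this library. In whole tissue, fewer cells of a type and less RNA per cell cannot be told apart. Of the 11 markers, 4 (ADIPOQ, CIDEC, CIDEA and LIPE) put all 3 high-NFMP steers above all 3 low-NFMP steers, a pattern of 7.97% of all tested genes, but none passed the study's threshold (a fold change above 2 together with an unadjusted p under 0.05). The summed levels of the endothelial list (70.6 to 102 CPM) and the fibroblast list (563 to 909 CPM) overlapped between the groups, as did those of the immune list (22.8 to 44.0 CPM), of which only AIF1, a macrophage gene, passed the threshold (log2 fold change 1.04), as 2.53% of all tested genes did in that direction. Within the endothelial, fibroblast and muscle fibre lists no gene passed it. CD14 and CSF1R, 2 of the 6 immune markers, were higher in all high-NFMP than in all low-NFMP steers, and PDGFRA (fibroblast) and CDH5 (endothelial) were lower, where 17.1% of all tested genes did not overlap in either direction.

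The rows of 3 of the enzymes could not be separated from another gene. In the RefSeq gene table of the assembly ARS-UCD2.0, GPD1 overlaps the long noncoding RNA gene LOC104972400, DGAT1 overlaps HSF1 (the master transcription factor of the heat shock response), and AGPAT1 overlaps EGFL8. GPD1 had 4299, 7232 and 7633 reads in steers 3-8, 10-8 and 10-9 (high NFMP), and 5899, 5755 and 6330 reads in steers 3-1, 3-3 and 10-16 (low NFMP). LOC104972400 was counted 4305, 7233, 7636, 5907, 5764 and 6337 times in the same order, at most 0.156% away. The 2 rows therefore carried the same numbers for practical purposes. DGAT1 had 1155, 1941 and 1842 reads with high NFMP, and 1375, 1471 and 1572 reads with low NFMP. HSF1 was counted 1177, 1954, 1829, 1371, 1481 and 1576 times, between 0.706% below and 1.90% above DGAT1. EGFL8 was counted between 14.1% less and 4.48% more often than AGPAT1, at 70 to 96 against 67 to 107 reads. Strand use in the counting is not given in any source used, so the reads of the GPD1, AGPAT1 and DGAT1 rows may come from either gene of each pair. The other 7 enzymes had no overlapping gene with a row of its own. EMILIN3, which lies within 2000 bases of LPIN3, had 63, 23 and 64 reads with high NFMP and 32, 39 and 31 with low NFMP. LPIN3 had 84, 41 and 88 against 52, 63 and 53 reads, so the rows rose and fell together (the log2 fold change of EMILIN3 was 0.65). Reads shared between them cannot be told apart, and the LPIN3 values below are those of its row. Rows within 2000 bases were also found for 3 others of the 10. EGFL7, beside AGPAT2, had 88, 56 and 199 reads with high NFMP and 47, 89 and 64 with low NFMP, far fewer than AGPAT2, and both were highest in steer 10-9 (EGFL7 log2 fold change 0.87, unadjusted p = 0.0503 by edgeR). RNF5, beside AGPAT1, had 767 to 1027 reads, far more than AGPAT1, and COX14, beside GPD1, had 1170 to 1495.

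**Figure D1:**
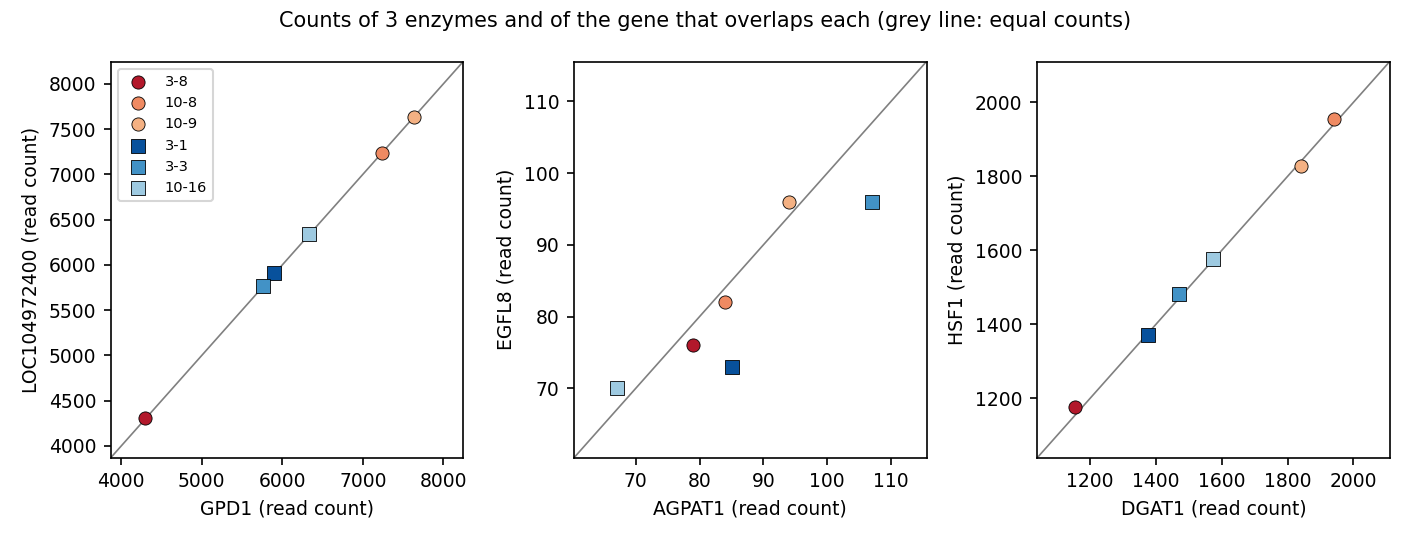
Read counts of GPD1, AGPAT1 and DGAT1 (horizontal axes) against the gene that overlaps each in ARS-UCD2.0 (vertical axes), 1 point per steer, with circles for high and squares for low NFMP. The GPD1 and DGAT1 points lie on the line of equal counts, within 0.156% and 1.90%, and the AGPAT1 points lie within 14.1% of it.

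The enzymes covered a wide range of levels. GPD1 led with a mean of 371 ± 84.2 CPM (SD over the 6 steers), followed by LPIN1 at 205 ± 66.0, DGAT1 at 93.6 ± 22.1, GPAM at 62.6 ± 13.3, DGAT2 at 53.4 ± 25.6 and AGPAT2 at 39.5 ± 12.7 CPM. The remaining 4 were rare, with AGPAT3 at 7.76 ± 2.37, LPIN2 at 5.98 ± 1.33, AGPAT1 at 5.12 ± 0.697 and LPIN3 at 3.78 ± 1.10 CPM. GPD1 and LPIN1 together made up between 65.8% and 69.0% of the counts of the 10 enzymes. The neighbours GPD1 and LPIN1 overlapped through 1 steer, 3-8, in which LPIN1 (332 CPM) was above GPD1 (259 CPM). The ranges of DGAT1, GPAM and DGAT2 overlapped, and so did those of GPAM, DGAT2 and AGPAT2 and those of the 4 rare enzymes with their neighbours in the order. LPIN1 lay above DGAT1, and AGPAT2 above AGPAT3, with no overlap. AGPAT1 varied least between steers, with a coefficient of variation of 13.6%, and DGAT2 most, with 47.9%, its highest steer being 3.34 times its lowest.

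**Figure D2:**
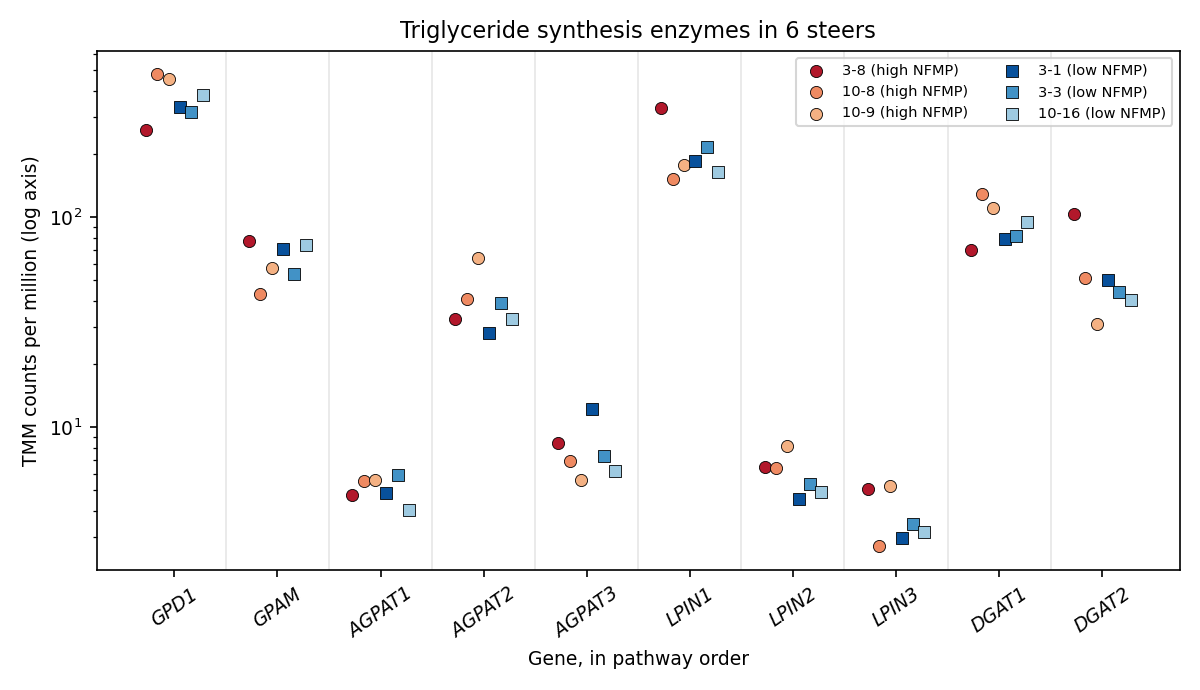
TMM CPM (log axis) of the 10 enzymes in pathway order, 1 point per steer, with circles for high and squares for low NFMP. GPD1 and LPIN1 were highest, AGPAT1, AGPAT3, LPIN2 and LPIN3 stayed at or below 12.2 CPM, and steer 3-8 was the highest for LPIN1 (332 CPM) and DGAT2 (103 CPM).

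In the comparison of high with low NFMP, none of the 10 enzymes passed the study's threshold. Over all 15039 tested genes 586 passed, which is 3.9%, 2.53% higher and 1.36% lower, and edgeR's quasi-likelihood test gave 103 of all tested genes (0.685%) an adjusted p under 0.05. None of the 10 had an unadjusted p below 0.05 by edgeR, as against 11.5% of all tested genes, and none was called by DESeq2 or by limma after quantile normalization. All 10 were tested. Their log2 fold changes ran from -0.30 (AGPAT3) to 0.51 (LPIN2), with a median of 0.25, where the median of all tested genes was 0.02. They were positive in 8 and negative in 2, and 51.9% of all tested genes were positive. Of the marker lists, 10 of 11 adipocyte markers were positive (median 0.63) and 9 of 10 muscle fibre markers (median 0.17), as were 4 of 6 fibroblast (median 0.20), 4 of 6 immune (median 0.42) and 2 of 6 endothelial markers (median -0.012). The 95% interval of the fold change lay within 2-fold either way for 7 enzymes. For LPIN2, LPIN3 and DGAT2 it reached above 2-fold, so that a change of that size was not shown to be absent for these 3. Among the 7, GPD1, AGPAT1 and DGAT1 are rows that may hold another gene's reads, so their intervals are those of the rows. That of AGPAT2 ended near the limit, at a log2 fold change of 0.97. With 3 steers against 3, p-values rest on a spread that edgeR borrows from other genes.

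**Figure D3:**
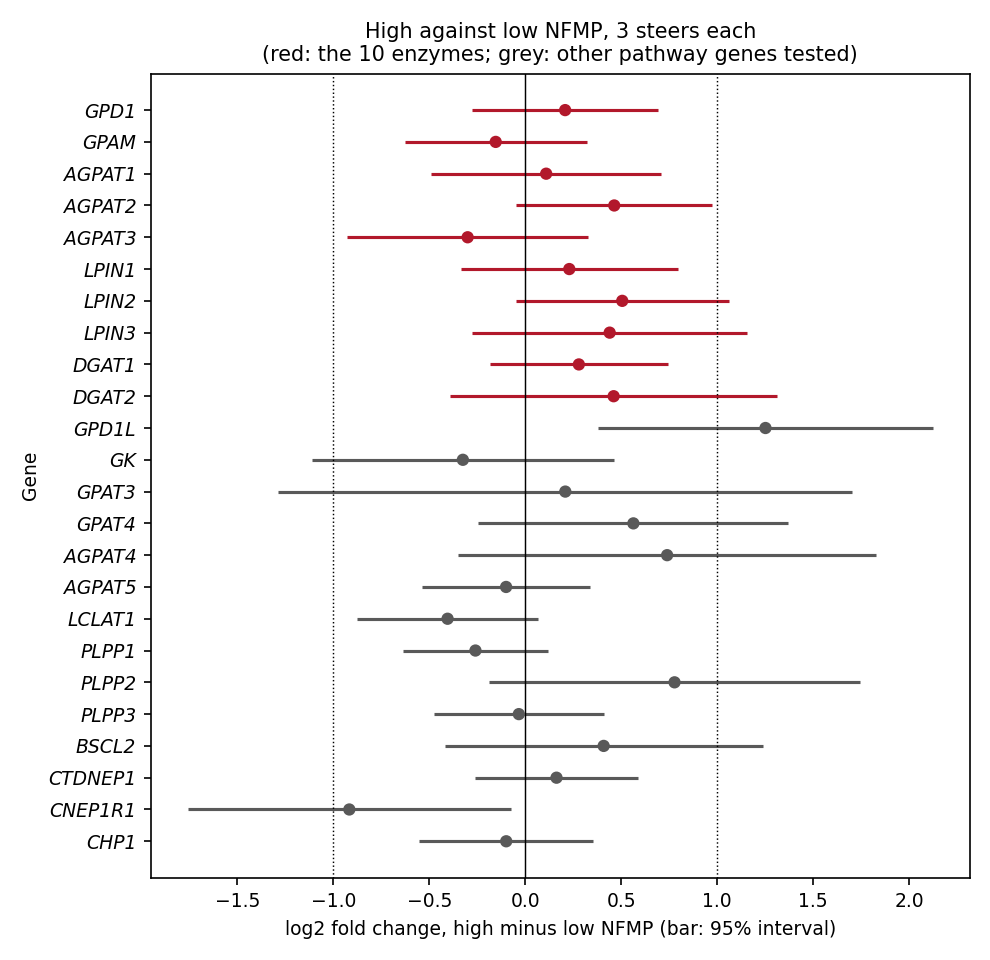
Log2 fold change (high minus low NFMP) with its 95% interval from edgeR, in red for the 10 enzymes and in grey for the other genes of the pathway that were tested. All 10 red intervals cross 0, and those of LPIN2, LPIN3 and DGAT2 reach past 1, whereas among the grey genes the interval of GPD1L lies above 0, from 0.38 to 2.12, and that of CNEP1R1 below 0, from -1.76 to -0.077.

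At the first step, GPD1 had 259, 478 and 456 CPM in steers 3-8, 10-8 and 10-9 (high NFMP) against 336, 317 and 380.4 CPM in steers 3-1, 3-3 and 10-16 (low NFMP), an order of steers kept for the other enzymes. The high-NFMP steers held both the lowest and the highest values, so the groups overlapped. The means were 398 ± 120 and 344 ± 32.5 CPM (SD, n = 3 each), a log2 fold change of 0.21 (95% interval -0.28 to 0.69, adjusted p = 0.763 by edgeR). GPAM, which commits the molecule to glycerolipid synthesis, had 77.3, 43.2 and 57.2 CPM against 70.7, 53.7 and 73.4 CPM. Its groups overlapped as well, with a log2 fold change of -0.15 (95% interval -0.63 to 0.32, adjusted p = 0.825 by edgeR).

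Among the AGPAT genes, AGPAT2, the isoform whose loss causes congenital lipodystrophy in people, had 32.9, 40.7 and 63.7 CPM in the high-NFMP steers and 28.1, 38.8 and 32.6 CPM in the low-NFMP steers. Steer 10-9 was far above the rest, and the other 5 steers were mixed between the groups. The log2 fold change was 0.46 (95% interval -0.05 to 0.97, adjusted p = 0.487 by edgeR), and it was 0.16 without steer 10-9. AGPAT3 had 8.38, 6.88 and 5.61 CPM against 12.2, 7.33 and 6.19 CPM, with the highest value in low-NFMP steer 3-1. Its log2 fold change of -0.30 (95% interval -0.93 to 0.33) became 0.04 without that steer. AGPAT1 lay between 4.03 and 5.89 CPM in all steers, with a log2 fold change of 0.11 (95% interval -0.49 to 0.71).

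LPIN2 was the only one of the 10 whose groups did not overlap. It had 6.45, 6.42 and 8.18 CPM in the high-NFMP steers and 4.56, 5.34 and 4.93 CPM in the low-NFMP steers, from 80 to 137 reads in a library. Its log2 fold change was 0.51 (95% interval -0.05 to 1.06, unadjusted p = 0.0718 and adjusted p = 0.486 by edgeR). Separation of the groups in this direction was seen in 7.97% of all tested genes, and in either direction in 17.1%, so 1 of 10 was near the background. LPIN1, the main lipin of muscle and fat, which also acts as a transcriptional coactivator, had 332, 153 and 178 CPM against 184, 216 and 165 CPM. Steer 3-8 lay above all others and steers 10-8 and 10-9 lay among or below the low-NFMP steers. The log2 fold change of 0.23 (95% interval -0.34 to 0.79) was -0.19 without steer 3-8. LPIN3 lay between 2.71 and 5.25 CPM, with a log2 fold change of 0.44 (95% interval -0.28 to 1.16). Its 2 highest values were in steers 3-8 and 10-9 and its lowest in steer 10-8, all of them high-NFMP.

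At the last step the 2 DGAT rows took opposite positions in steer 3-8. DGAT1 had 69.7, 128 and 110.0 CPM in the high-NFMP steers and 78.3, 81.0 and 94.5 CPM in the low-NFMP steers. Steers 10-8 and 10-9 lay above all low-NFMP steers and steer 3-8 below them. The log2 fold change was 0.28 (95% interval -0.19 to 0.74, adjusted p = 0.659 by edgeR), and HSF1, its overlapping gene, gave the same value, 0.28. DGAT2 had 103, 51.1 and 31.0 CPM against 50.4, 44.0 and 40.5 CPM. Steer 3-8 was the highest and steer 10-9 the lowest of all 6. The log2 fold change of 0.46 (95% interval -0.39 to 1.31, adjusted p = 0.683 by edgeR) turned to -0.13 without steer 3-8 and rose to 0.79 without steer 10-9.

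No enzyme was called in any of the 6 fits with 1 steer left out. Without steer 3-8, GPD1, AGPAT2 and DGAT1 had unadjusted p-values of 0.027, 0.0162 and 0.0174 by edgeR, with log2 fold changes of 0.44, 0.65 and 0.49 and adjusted p-values of at least 0.239. Over all genes, 744 of 15417 tested passed the study's threshold in that fit. The share with an unadjusted p below 0.05 by edgeR was not counted there, and was 11.5% with all 6 steers. Without steer 10-8 the log2 fold changes of GPD1 and DGAT1 were 0.095 and 0.13. Without steer 10-8 LPIN3 reached an unadjusted p of 0.0466 by edgeR with a log2 fold change of 0.72, and without steer 10-9 DGAT2 reached 0.00958. Summed over the 10 enzymes, the level was 899, 916 and 920.0 CPM in the high-NFMP steers and 772, 773 and 805 CPM in the low-NFMP steers. The sums did not overlap, and no test was made of them. Of all tested genes taken singly, 7.97% put all high-NFMP above all low-NFMP steers. The sums were mostly GPD1 and LPIN1, which were lowest and highest in steer 3-8, in that order. The GPD1 and DGAT1 rows in them carry nearly the same numbers as LOC104972400 and HSF1. As shares of the total counts, with no TMM scaling, the sums ranged from 0.0838% to 0.0917% in the high-NFMP group and from 0.0779% to 0.0836% in the low-NFMP group.

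Isoforms were next compared within each steer, with an exact sign-flip permutation test over the 6 steers (two-sided, Benjamini-Hochberg adjusted over the 7 pairs, with the smallest p reached when all steers show 1 order). The difference was taken on log2(CPM + 0.5). LPIN1 was higher than LPIN2 in 6 of 6 steers, by 4.96 ± 0.47 on the log2 scale (mean ± SD), and higher than LPIN3 by 5.57 ± 0.34. The ratio of LPIN1 to LPIN2 counts ran from 21.7 in steer 10-9 to 51.5 in steer 3-8. LPIN2 was higher than LPIN3 in 6 of 6 steers, by 0.61 ± 0.26, and each of these 3 pairs had an adjusted exact p of 0.0438. AGPAT2 was the highest of AGPAT1, AGPAT2 and AGPAT3 in 6 of 6 steers, with a mean log2 difference of -2.79 ± 0.33 for AGPAT1 minus AGPAT2 and of 2.27 ± 0.73 for AGPAT2 minus AGPAT3 (adjusted exact p = 0.0438 each). AGPAT3 was higher than AGPAT1 in 5 steers and equal to it, at 94 reads each, in steer 10-9, a mean log2 difference of -0.52 ± 0.44 (AGPAT1 minus AGPAT3) that missed the threshold (adjusted exact p = 0.0625). DGAT1 was higher than DGAT2 in 5 of 6 steers, by 0.88 ± 0.82, which also missed it (adjusted exact p = 0.0625). Steer 3-8 was the exception, with a DGAT1 to DGAT2 ratio of 0.673 where the others had 1.56 to 3.55. The AGPAT1, AGPAT2, DGAT1 and LPIN3 rows may hold reads of the overlapping or neighbouring genes named above, so the order is of rows. The transcripts of these enzymes themselves may rank otherwise, in a direction that the counts do not give. With 5 steers the smallest exact p is 0.0625, so no pair could pass with a steer left out, although each of the 5 pairs that passed kept its order.

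As a share of the summed DGAT counts, DGAT2 made up 59.8% in steer 3-8 (exact binomial 95% interval 57.9% to 61.6%, which covers counting error only), 28.5% in steer 10-8 and 22.0% in steer 10-9. In the low-NFMP steers 3-1, 3-3 and 10-16 it made up 39.1%, 35.2% and 30.0%. The high-NFMP steers thus spanned the low-NFMP ones, with means of 36.7% ± 20.2 and 34.8% ± 4.58 (SD, n = 3 each). AGPAT2 held 77.7% ± 6.86 of the summed AGPAT1, AGPAT2 and AGPAT3 counts in the high-NFMP group and 71.0% ± 7.58 in the low-NFMP group, a difference of 6.67 percentage points that was 2.32 without steer 3-1, and LPIN1 held 94.7% ± 1.85 and 95.8% ± 0.444 of the lipin counts. None of the 8 shares separated the groups. Their exact permutation p-values lay between 0.4 and 1, where the smallest that 3 steers against 3 can give is 0.1. Without steer 3-8, 6 of the 8 shares did not overlap between the remaining 2 and 3 steers, with exact permutation p-values of 0.1 to 0.4 over the 8. No background was computed for this count, so nothing is drawn from it. Shares of a family sum to 100%, so they are not separate measurements, and DGAT1 and DGAT2 give a single one.

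**Figure D4:**
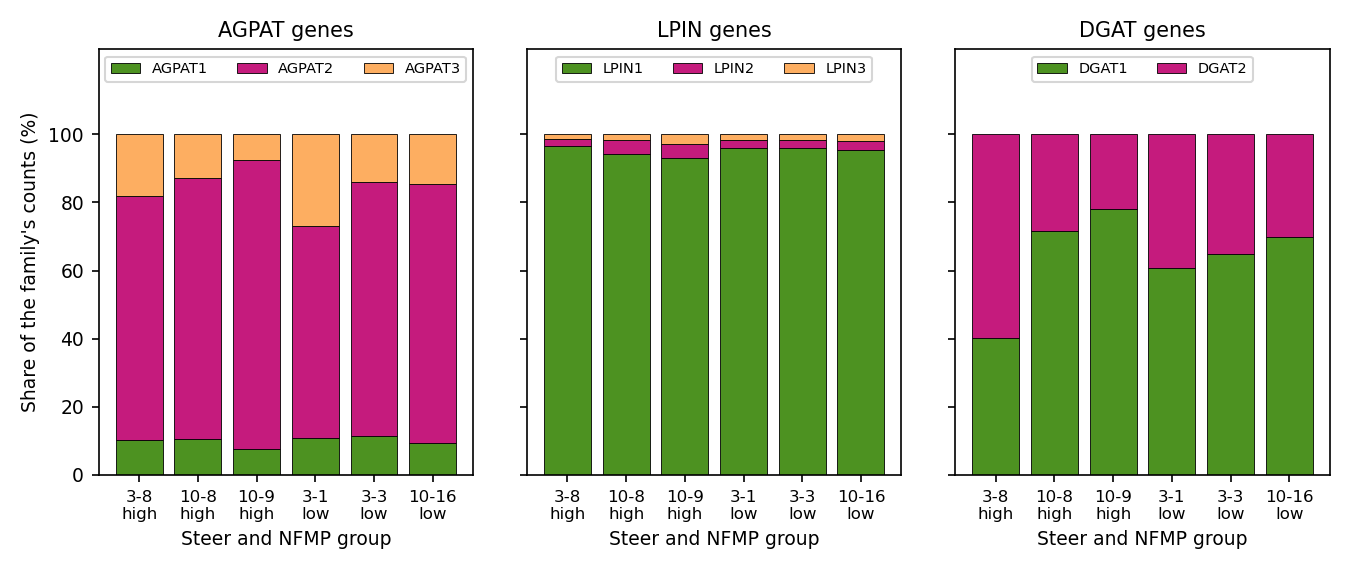
Share (%) of each isoform in the summed counts of the AGPAT1 to AGPAT3, LPIN1 to LPIN3 and DGAT1 to DGAT2 genes, 1 stacked bar per steer. LPIN1 filled between 93.0% and 96.6% of each lipin bar, and DGAT2 filled 59.8% of the DGAT bar of steer 3-8 against at most 39.1% elsewhere.

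The levels were then set beside the summed adipocyte markers. Over the 6 steers, DGAT2 had a Pearson r of 0.92 with the marker level on the log2 scale (exact permutation p = 0.0375, adjusted over the 10 enzymes 0.215) and a Spearman rho of 0.77 (exact permutation p = 0.103, adjusted 0.604). LPIN1 had an r of 0.91 (exact permutation p = 0.0431, adjusted 0.215) and a rho of 0.66 (exact permutation p = 0.175, adjusted 0.604). GPD1 had the most negative r, -0.71 (exact permutation p = 0.0861, adjusted 0.287), with a rho of -0.60 (exact permutation p = 0.242, adjusted 0.604). None of the 10 passed the adjustment. Without steers 3-8 and 10-16, the farthest from the median marker level, r was 0.60 for DGAT2, 0.22 for LPIN1 and -0.30 for GPD1, on 4 steers. With only steer 3-8 left out r was 0.50, 0.38 and -0.15, and with only steer 10-16 left out it was 0.93, 0.91 and -0.74, so the size of r rested on steer 3-8. The part of fat cell RNA in the LPIN1 and DGAT2 levels was not tested beyond this.

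**Figure D5:**
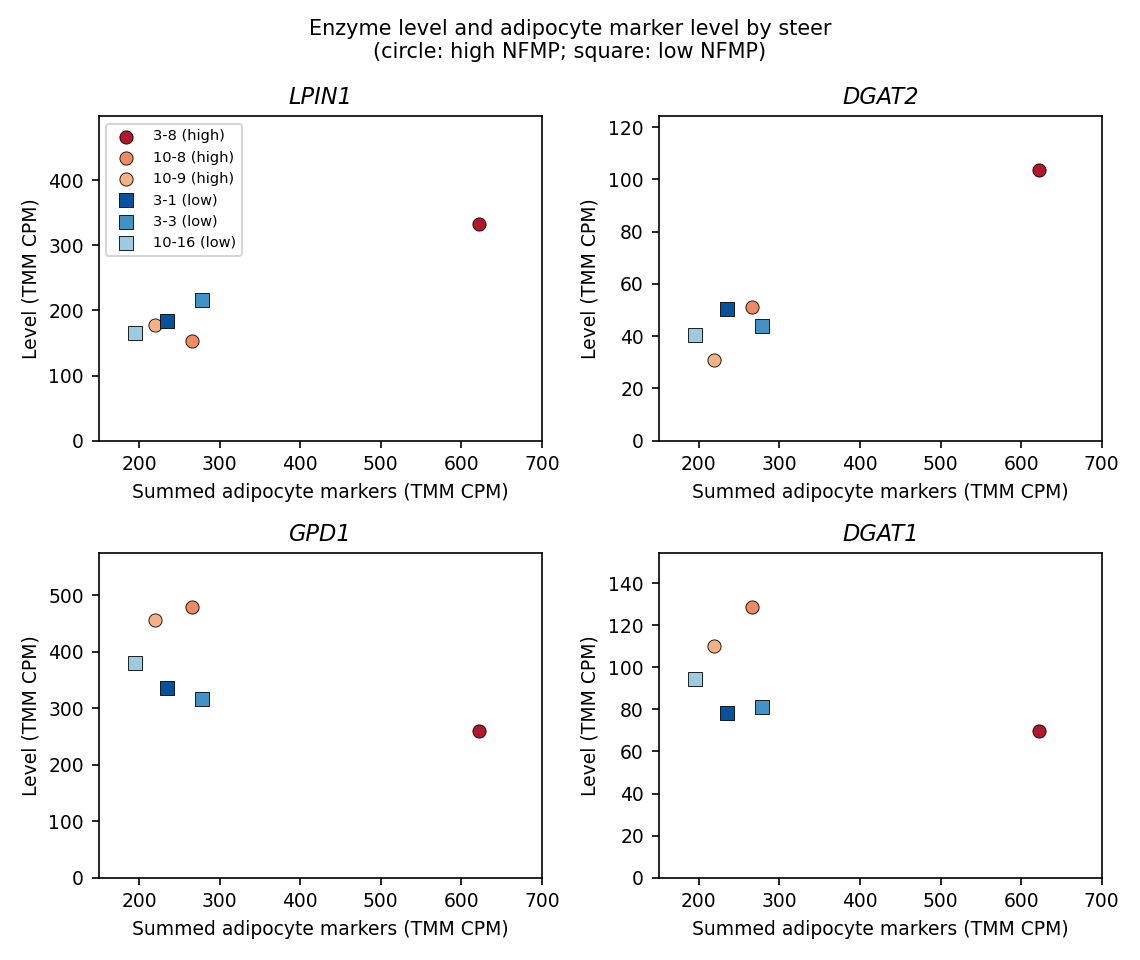
Levels of LPIN1, DGAT2, GPD1 and DGAT1 (vertical axes, TMM CPM) against the summed level of 11 adipocyte markers (horizontal axes, TMM CPM), 1 point per steer, with circles for high and squares for low NFMP. Steer 3-8 lies alone at 622 CPM of markers, with the highest LPIN1 and DGAT2 and the lowest GPD1 and DGAT1, and the other 5 steers lie between 195 and 278 CPM.

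The steer labels begin with 3 or 10, a number whose meaning is not given, and 4 of the 10 enzymes did not overlap between these sets, as against 14.1% of all tested genes. GPD1 and DGAT1 were higher in each steer labelled 10 (at least 380.4 and 94.5 CPM) than in any labelled 3 (at most 336 and 81.0 CPM), an order that 7.04% of all tested genes had. LPIN1 and AGPAT3 were lower in each steer labelled 10 (at most 178 and 6.88 CPM) than in any labelled 3 (at least 184 and 7.33 CPM), which 7.11% had. The summed muscle fibre markers split in the same way, at 62225 to 81365 CPM in the steers labelled 10 and 48630 to 53536 CPM in those labelled 3. Their relation to these levels over the 6 steers is given among the other observations. The high-NFMP group held 1 steer labelled 3 and the low-NFMP group 2. For GPD1 the high-NFMP steers were above the low-NFMP steer within label 10, at 478 and 456 against 380.4 CPM. Within label 3 they were below, at 259 against 336 and 317 CPM. With this number as a term in the fit, the log2 fold change between the NFMP groups was -0.02 for GPD1, 0.07 for DGAT1, 0.37 for LPIN1 and -0.11 for AGPAT3.

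Of 19 other genes of the pathway looked for, 18 had a row and 14 were tested. In the comparison of the groups 1 was higher past the threshold and none was lower, where 2.53% and 1.36% of all tested genes were. Of the 14, 1 separated the groups upwards and 2, GK (glycerol kinase) and CNEP1R1, downwards, against 17.1% of all tested genes in either direction. The higher gene was GPD1L, a relative of GPD1 that also interconverts glycerol-3-phosphate, with 2.68 ± 0.617 CPM in the high-NFMP group against 1.12 ± 0.240 CPM in the low-NFMP group (SD, n = 3 each). The counts were 34, 41 and 55 against 19, 25 and 15, so the groups did not overlap. Its log2 fold change was 1.25 (95% interval 0.38 to 2.12, adjusted p = 0.238 by edgeR), and since the study lists it among genes chosen on these same libraries, its direction is not independent evidence. The counts were low, and the row was far below that of GPD1. CNEP1R1, a subunit of the phosphatase that activates lipins, had 1.73 ± 0.509 against 3.27 ± 1.07 CPM, a log2 fold change of -0.92 (unadjusted p = 0.0345 and adjusted p = 0.398 by edgeR), short of the fold change limit.
Related acyltransferases were counted as well as the 10. AGPAT5, a mitochondrial member of the AGPAT family, had 297 to 455 CPM, above each of the 3 AGPAT isoforms described, and a log2 fold change of -0.10 (95% interval -0.54 to 0.34). AGPAT4 was rare, at 0.481 to 2.25 CPM. GPAT4, the glycerol-3-phosphate acyltransferase of the endoplasmic reticulum, had 13.9 to 44.8 CPM and a log2 fold change of 0.56 (95% interval -0.25 to 1.37). GPAT3, its close relative, varied widely, from 6.56 to 27.5 CPM, with a log2 fold change of 0.21 (95% interval -1.29 to 1.70). BSCL2, which encodes seipin, a lipid droplet assembly protein, had 1.88 to 4.84 CPM and a log2 fold change of 0.41 (95% interval -0.42 to 1.24). Its row, at 33 to 81 reads, may hold reads of other genes. BSCL2 overlaps GNG3 (3 to 15 reads) and lies within 2000 bases of LRRN4CL (202 to 247 reads). Of the monoacylglycerol route to diacylglycerol, MOGAT1 and MOGAT2 were barely seen, with at most 17 and 3 reads in a library. MOGAT3 had no row, so its level is not known. Over the 14 tested genes the median log2 fold change was 0.06.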

How the data were processed

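The authors prepared 3′ mRNA libraries from LT muscle and deposited unnormalized read counts for each gene symbol, which are whole numbers. Their methods name Tophat2 mapping with HTSeq counting and also Bowtie2 alignment with unique and multiple alignments. No source used here says which of these made the counts. The quantile normalization they name is not in these values. Steers were grouped by their labels. The tests were run in edgeR 4.0.16 under R 4.3.3: default filter with the group (minimum count 10, minimum total 15; 15039 of 23015 rows kept, with 176 repeated symbols as rows of their own), TMM factors between 0.915 and 1.083, robust dispersions and the quasi-likelihood test. Adjusted p-values are Benjamini-Hochberg over all tested rows. Intervals use the fitted standard error. CPM were computed from TMM library sizes. The procedure was tested on simulated counts. The 10 enzymes and the lists of pathway genes and of adipocyte, muscle fibre, endothelial, fibroblast and immune markers were chosen with earlier results of these data known. Named genes were the 10 enzymes, GPD1L, GPAT3, GPAT4, AGPAT4, AGPAT5 and BSCL2, and list genes past the threshold. The other genes named were chosen after their values were seen. Alternatives were DESeq2 1.42.0, quantile normalization of log2(count + 1) with limma 3.58.1, other filters and scalings, label number or age as terms, summed repeated symbols and each steer left out. Overlapping and neighbouring genes were found from gene positions that RefSeq gives for the assembly ARS-UCD2.0, whereas the methods name UMD3.1 for mapping, so overlaps may differ between the builds and no coordinates are printed. No sequences were used here.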

Additional observations from a re-analysis of the deposited data

How the results depend on the processing

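No enzyme was called under any of the alternatives run, and the order of LPIN1, LPIN2 and LPIN3 and of AGPAT2 above AGPAT1 and AGPAT3 held in each steer. With 1 steer left out, the exact p of these isoform pairs was 0.0625, the smallest that 5 steers can give. Over all genes 969 passed the threshold with no filter on low counts, 364 with at least 10 counts in every library, and between 630 and 744 with 1 steer left out. Several fold changes changed sign, none of them past the threshold. The log2 fold change of GPD1 was -0.018 with the label number as a term, and that of LPIN1 was -0.092 with age as a term. With age it was also 0.38 for GPD1 and DGAT1, 0.15 for DGAT2, 0.06 for AGPAT1 and -0.03 for AGPAT3. For GPAM, AGPAT2, LPIN2 and LPIN3 it was -0.13, 0.46, 0.48 and 0.34 with age. With 1 steer left out the log2 fold change ran from -0.40 to 0.055 for GPAM and from 0.017 to 0.26 for AGPAT1. For AGPAT3 it ran from -0.46 to 0.039 and for LPIN1 from -0.19 to 0.46. Its range was 0.29 to 0.72 for LPIN3 and -0.13 to 0.79 for DGAT2. The number of isoform shares that did not overlap between the groups ran from 0 to 6. The high minus low difference in share ran from -9.34 to 9.55 percentage points for DGAT1, from -9.55 to 9.34 for DGAT2, from 2.32 to 9.80 for AGPAT2 and from -0.068 to 0.57 for LPIN3. Pearson r with the adipocyte markers ran from -0.74 to 0.53 for GPAM, from -0.40 to 0.037 for AGPAT2, from -0.28 to 0.88 for LPIN3, from -0.75 to 0.0038 for DGAT1 and from -0.54 to 0.81 for AGPAT1, which was -0.019 with the mean log2 marker level. The cause was not tested. No enzyme passed the adjustment for r under any of these settings. No comparison of isoforms per kilobase of coding length was run, since no coding lengths were used here. No paired analysis was possible because the labels give the steers no replicate numbers that match 1 steer to another. The first label number is shared by several steers, and was used as a term only. At 41 to 137 reads a library for LPIN2 and LPIN3, counting error adds to the spread between steers.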

Other observations

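The levels were also set beside the summed muscle fibre markers, a comparison chosen after the data were seen. The summed level ran from 48630 CPM in steer 3-8 to 81365 CPM in steer 10-8. Over the 6 steers, DGAT1 had a Pearson r of 0.94 (exact permutation p = 0.00694, adjusted over the 10 enzymes 0.0694) and a Spearman rho of 0.94 (exact permutation p = 0.0167, adjusted 0.0833). GPD1 had an r of 0.87 (exact permutation p = 0.0306, adjusted 0.153) and a rho of 0.89 (exact permutation p = 0.0333, adjusted 0.111). LPIN1 went the other way, with an r of -0.76 (exact permutation p = 0.0667, adjusted 0.222) and a rho of -0.94 (exact permutation p = 0.0167, adjusted 0.0833). None passed the adjustment. Without steers 10-8 and 3-8, the farthest from the median, r was 0.79 for DGAT1, 0.70 for GPD1 and -0.70 for LPIN1. The DGAT1 and GPD1 rows share their numbers with HSF1 and LOC104972400, so the relation holds as much for those rows.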
